A study of Mus musculus with 12 samples.

Results

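Growth and repair factors are secreted proteins through which macrophages act on vessels, epithelium and connective tissue. Transcripts of 9 of them, Vegfa, Vegfb, Hbegf, Igf1, Pdgfa, Pdgfb, Tgfb1, Gdf15 and Osm, were followed in bone marrow-derived macrophages (BMDMs). They were taken by symbol from a table of 24421 genes, and all 9 were in the table and passed the filter on low counts, which left 11468 genes tested. The cells came from wild-type C57BL/6 mice, were grown for 5 days in M-CSF, the macrophage growth factor, (100 ng/mL, renewed on day 3), and were then exposed for 4 hours. One exposure was to I-BET151 (iBET) at 5.0 µM, a small molecule that blocks the bromodomains by which BET proteins bind acetylated histones, or to the solvent DMSO. The other was to ovalbumin (Ova) alone or to ovalbumin complexed with IgG (immune complex, IC), which cross-links Fc gamma receptors. The labels give drug and stimulus as started together, whereas in the study's methods the drug came before the stimulus, and which holds for these libraries is not known. Cells of 3 mice (A, B and C) were used, with 1 library per mouse in each of the 4 groups, DMSO Ova, DMSO IC, iBET Ova and iBET IC. All 4 groups are cultured cells, so they lack the tissue in which these factors act.

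Vegfa and Vegfb are growth factors of the vessel wall. Igf1 encodes insulin-like growth factor 1, a survival and growth factor for muscle and many other tissues. Pdgfa and Pdgfb encode the chains of platelet-derived growth factor, which recruits fibroblasts and smooth muscle cells. Hbegf encodes an epidermal growth factor relative that is shed from the cell surface, Tgfb1 encodes the latent cytokine TGF-beta 1, which acts on matrix production and inflammation, Gdf15 encodes a stress-induced distant relative of TGF-beta, and Osm encodes oncostatin M, a cytokine of the interleukin-6 family. Macrophages in healing tissue are known sources of many of these proteins.

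Total counts ran from 7.55 M to 17.4 M per library. In mouse A's DMSO Ova library, the ribosomal precursor Rn45s took 77.4% of the counts and left 1.77 M on other genes, against 1.41% to 7.83% and 7.25 M to 16.9 M in the other 11, so the tests of the factors that rest on it are also given without it. The 10 macrophage markers were all tested, and their summed level was 6702 to 7598 CPM (counts scaled to a common library size) in DMSO IC, 7023 to 8127 in DMSO Ova, 7873 to 9344 in iBET Ova and 8293 to 9103 in iBET IC. Summed markers of neutrophils were at 7.70 to 50.7 CPM, of megakaryocytes or platelets at 37.7 to 70.2, and of endothelium at 29.4 to 45.8. The endothelial list was at 37.5 to 40.3 in DMSO Ova and 29.4 to 33.0 in iBET Ova, and at 42.7 to 45.8 in DMSO IC and 32.2 to 40.1 in iBET IC. Nearly all of it came from Kdr, itself one of the receptors of these factors (means of 19.3, 12.3, 24.1 and 14.5 in the same order), and Vwf, which was at 18.9, 17.9, 19.1 and 20.5, while Pecam1 and Cdh5 were at means of at most 0.552 and 1.12. Markers of dendritic, B, T or NK, fibroblast, erythroid and mast cells summed to at most 4.59 CPM in any library. Among the defining markers of these lists, Ebf1, Lum, Cpa3 and Ms4a2 were at 0 in all 12, as were the endothelial Emcn and the platelet Gp9. Other members of the lists held counts, among them Cd4 (at most 83), Zbtb46 (at most 17) and Cd79b (at most 14). Nearly all of the platelet list came from Pf4, at means of 57.9 CPM in DMSO Ova, 53.4 in iBET Ova, 53.9 in DMSO IC and 54.8 in iBET IC.

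Per kilobase of exon, the factors spanned a wide range in these cells. Igf1 was the most abundant, with a median over the 12 libraries of 91.9 CPM per kb, a level above that of 96.4% of the genes tested. Tgfb1 followed at 34.6, Pdgfb at 20.7 and Vegfa at 14.8 CPM per kb. Vegfb (9.73) and Pdgfa (6.08) were near the middle of the genes tested, with 66.2% and 52.8% of genes below them. Gdf15 (1.82), Osm (0.849) and Hbegf (0.311) were low, and only 4.37% of tested genes lay below Hbegf. The ranges over libraries of Pdgfb (12.7 to 38.6 CPM per kb) and Vegfa (7.86 to 43.6) overlapped, as did those of Vegfa and Vegfb (7.24 to 17.3). Counting length by the longest transcript gave the same order.

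**Figure D1:**
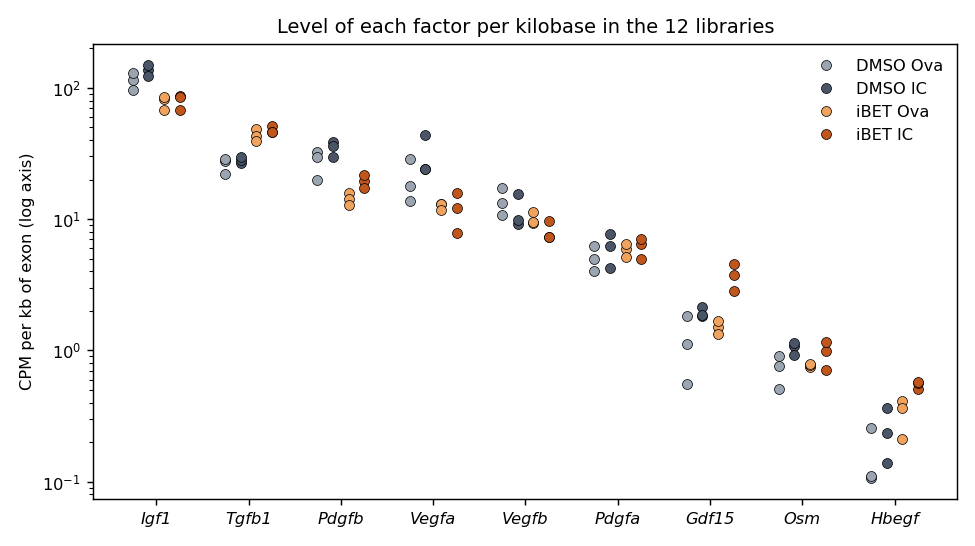
Level of the 9 factors in CPM per kilobase of exon, on a log axis, with 1 point per library and 4 colours for the groups of 3. Igf1 sits highest, between 67.7 and 150.1, and Hbegf lowest.

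The stretch of 250 bases before the transcription start is shown for 3 factors that stand for the directions seen with iBET: Tgfb1, which was higher in both backgrounds, Vegfa, which was lower with IC, and Gdf15, which was higher with IC. The sequences are from RefSeq on GRCm38.p6, 5′ to 3′ on the gene's strand, and capitals mark a GC box (GGGCGG on either strand). It was the only one of the 6 motifs searched that was found in any of these 3. Tgfb1 is at chr7:25686752-25687001 on the plus strand, Vegfa at chr17:46032378-46032627 on the minus strand and Gdf15 at chr8:70632457-70632706 on the minus strand.
Tgfb1: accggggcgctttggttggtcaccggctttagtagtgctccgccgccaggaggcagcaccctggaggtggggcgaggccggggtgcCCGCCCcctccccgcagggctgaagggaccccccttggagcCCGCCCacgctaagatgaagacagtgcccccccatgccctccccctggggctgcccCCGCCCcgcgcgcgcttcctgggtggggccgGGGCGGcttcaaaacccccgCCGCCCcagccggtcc
Vegfa: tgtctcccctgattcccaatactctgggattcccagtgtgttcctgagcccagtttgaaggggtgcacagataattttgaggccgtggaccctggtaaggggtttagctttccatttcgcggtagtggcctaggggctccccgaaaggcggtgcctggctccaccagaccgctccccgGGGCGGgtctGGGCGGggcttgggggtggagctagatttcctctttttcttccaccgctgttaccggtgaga
Gdf15: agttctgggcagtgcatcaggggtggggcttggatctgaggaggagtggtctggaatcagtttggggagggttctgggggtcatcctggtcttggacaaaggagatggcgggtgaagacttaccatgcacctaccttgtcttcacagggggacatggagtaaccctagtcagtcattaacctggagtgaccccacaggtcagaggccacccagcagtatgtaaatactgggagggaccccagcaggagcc
Tgfb1 held 5 GC boxes in 250 bases and was 75.2% G or C, against a median of 52.4% over 32851 RefSeq windows of the same length. Vegfa held 2 GC boxes, between 72 and 57 bases before the start, at 59.2% G or C, and Gdf15 held none at 56.4%. A GC box is present in 32.7% of all windows. Vegfb, which was not called with iBET, also held GC boxes in its window, which is not shown. The other 5 motifs, each sought on both strands, were in none of the 3. They were the TATA box with TATAAA, which 12.4% of all windows hold, and the AP-1 site with TGANTCA, which 6.75% hold. The CRE half-site with TGACG is in 17.8% of windows. The core of the hypoxia element with ACGTG is in 16.6%, and the STAT site with TTCNNNGAA in 7.02%. A match is a description of letters, and its absence says only that they are not in this window.

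The comparison of iBET with DMSO asked which factors change when BET proteins are blocked, first in cells given Ova and then in cells given IC. With Ova, 3 of the 9 factors passed the test, Tgfb1 higher and Igf1 and Pdgfb lower, where 31.3% of all genes passed (17.1% up and 14.2% down). With IC, 6 passed, Tgfb1, Gdf15 and Hbegf higher and Vegfa, Pdgfb and Igf1 lower, where 34.8% of all genes passed (19.0% up and 15.8% down). The median log2 change of the 9 was 0.16 with Ova and -0.18 with IC, beside 0.019 and -0.0037 for all genes. As these are bulk samples, fewer cells that make a factor and less of its RNA per cell cannot be told apart.

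**Figure D2:**
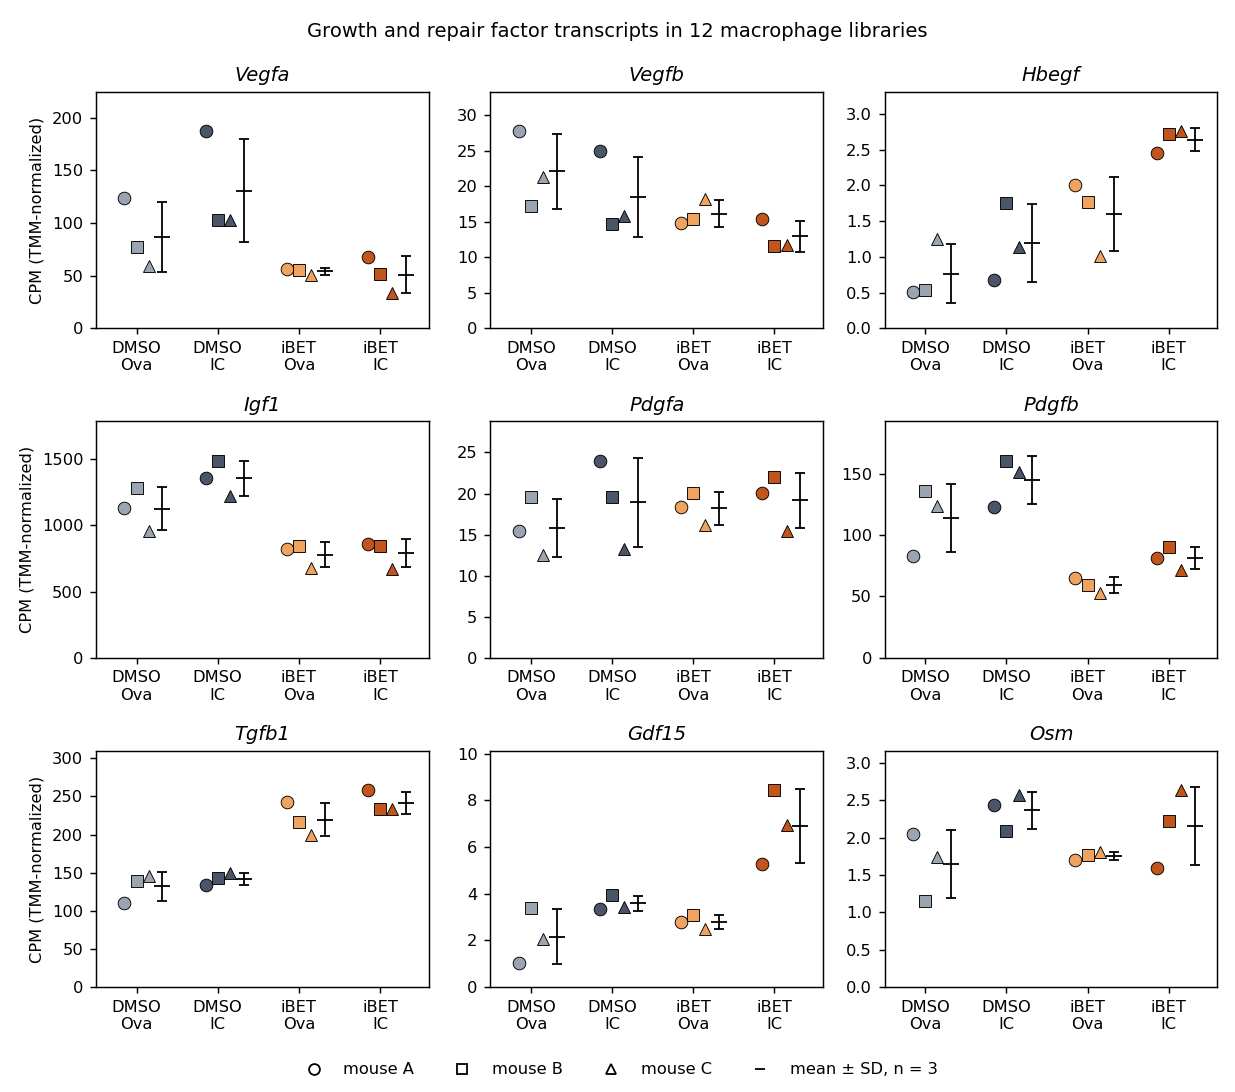
TMM-normalized CPM of each factor in the 12 libraries, by group (x axis) and mouse (symbol), with the mean and SD of 3 beside the points and the y axis starting at 0. The 6 iBET libraries lie above the 6 DMSO libraries for Tgfb1 and below them for Igf1, while for Pdgfb they lie below within each stimulus.

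Tgfb1 (chr7:25687002-25705077, plus strand, GENCODE vM21 on GRCm38) rose with iBET in both backgrounds. In mice A, B and C its level was 111, 139 and 146 CPM in DMSO Ova and 243, 216 and 199.6 CPM in iBET Ova. With IC it was 134, 143 and 149.7 CPM in DMSO and 258, 234 and 233 CPM in iBET. Every iBET library was above every DMSO library. The log2 fold change was 0.73 (SE 0.12, adjusted p = 0.000592) with Ova and 0.76 (SE 0.12, adjusted p = 0.000335) with IC, in 3 of 3 mice each time. Without mouse A's DMSO Ova library the change with Ova was 0.57 (adjusted p = 0.00217), and the call held whichever library or mouse was left out.

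Igf1 (chr10:87858265-87937042, plus strand) fell with iBET in both backgrounds. The level was 1128, 1285 and 959 CPM in DMSO Ova and 819, 845 and 674 CPM in iBET Ova. It was 1355, 1487 and 1221 CPM in DMSO IC and 861, 847 and 670 CPM in iBET IC. The lowest DMSO library was above the highest iBET library. The log2 fold change was -0.53 (SE 0.14, adjusted p = 0.0143) with Ova and -0.77 (SE 0.14, adjusted p = 0.0013) with IC, in 3 of 3 mice. After Ova the call did not survive the omission of mouse B's DMSO Ova library (-0.42, adjusted p = 0.0651), of mouse C's iBET Ova library (-0.43, adjusted p = 0.058) or of mouse B altogether (-0.48, adjusted p = 0.143), whereas the call with IC held in all of these fits. The change with Ova was -0.58 (adjusted p = 0.0168) without mouse A's DMSO Ova library. Igf1os lies on the opposite strand of the locus and shares no exon with Igf1.

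Pdgfb (chr15:79995874-80014977, minus strand) also fell in both backgrounds. The level was 82.7, 135 and 124 CPM in DMSO Ova against 65.4, 59.4 and 52.9 CPM in iBET Ova. With IC it was 123, 160 and 151 CPM in DMSO against 81.5, 89.9 and 71.7 CPM in iBET. The groups did not overlap within either background. The log2 fold change was -0.96 (SE 0.17, adjusted p = 0.00114) with Ova and -0.84 (SE 0.17, adjusted p = 0.00222) with IC, in 3 of 3 mice. Without mouse A's DMSO Ova library the change with Ova was -1.18 (adjusted p = 8.63e-05). Omission of mouse B removed the call after Ova (-0.81, adjusted p = 0.0566), and omission of mouse C removed that after IC (-0.72, adjusted p = 0.0535). The other chain gene, Pdgfa (chr5:138976014-138997370, minus strand), showed no such difference. It was at 12.5 to 19.6 CPM in DMSO Ova, 16.1 to 20.1 in iBET Ova, 13.2 to 24.0 in DMSO IC and 15.5 to 22.0 in iBET IC, and the groups overlapped. The change of Pdgfa was 0.19 with Ova (95% confidence interval -0.31 to 0.70) and 0.021 with IC (-0.47 to 0.51), and without mouse A's DMSO Ova library the former was 0.13. An antisense gene, 6330403L08Rik, overlaps an exon of Pdgfa, and as the use of strand in the counting is not given in the sources used here, Pdgfa counts are uncertain.

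Vegfa (chr17:46016993-46032369, minus strand) was lower with iBET after IC. In mice A, B and C it was at 187, 102 and 103 CPM in DMSO IC and at 67.9, 51.7 and 33.7 CPM in iBET IC. Each mouse's iBET library was below its DMSO library, and mouse A was the highest in both groups. The log2 fold change was -1.35 (SE 0.32, adjusted p = 0.00753). It held without any 1 library, and without mouse B the adjusted p was 0.0805 at a change of -1.51. With Ova the level was 123, 76.8 and 58.9 CPM in DMSO and 56.0, 55.8 and 50.5 CPM in iBET. These groups did not overlap, but the change of -0.64 (SE 0.33) did not pass the test (adjusted p = 0.163). With mouse as a block, which removes the level of each animal, the change with Ova was -0.59 and passed (adjusted p = 0.0188). Without mouse A's DMSO Ova library the change was -0.38 (adjusted p = 0.406) with no block and -0.54 (adjusted p = 0.039) with it. For Vegfb (chr19:6982473-6987651, minus strand), the related ligand, the level was 27.7, 17.3 and 21.3 CPM in DMSO Ova and 14.9, 15.3 and 18.3 CPM in iBET Ova. With IC it was 25.0, 14.6 and 15.8 CPM in DMSO and 15.4, 11.6 and 11.7 CPM in iBET. All 3 mice had less Vegfb with iBET each time, although the groups overlapped. The change of Vegfb was -0.41 (adjusted p = 0.204) with Ova and -0.51 (SE 0.22, adjusted p = 0.0977) with IC, and the latter passed with mouse as a block (-0.50, adjusted p = 0.0339). The change of Vegfb with Ova was -0.30 without mouse A's DMSO Ova library.

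Gdf15 (chr8:70629393-70632456, minus strand) was higher with iBET after IC. The level was 5.28, 8.43 and 6.95 CPM in iBET IC, from 99, 87 and 58 counts. It was 3.37, 3.96 and 3.43 CPM in DMSO IC, 2.78, 3.09 and 2.48 CPM in iBET Ova and 1.03, 3.37 and 2.07 CPM in DMSO Ova, the last from 2, 44 and 25 counts. The 3 iBET IC libraries were above the other 9. The log2 change with iBET was 0.93 after IC (SE 0.27, adjusted p = 0.0166, 3 of 3 mice) and 0.16 after Ova (adjusted p = 0.81, 2 of 3 mice). The call after IC was lost without mouse A's DMSO IC library (0.85, adjusted p = 0.0567), without mouse B's iBET IC library (0.76, adjusted p = 0.0757), and without mouse B (0.83, adjusted p = 0.111) or mouse C (0.89, adjusted p = 0.117). It was also lost in limma on the authors' normalized signal (0.87, adjusted p = 0.0783). Without mouse A's DMSO Ova library the change after Ova was -0.024.

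Hbegf, on chromosome 18, was higher with iBET after IC at very low counts. The level was 2.46, 2.71 and 2.76 CPM in iBET IC, from 46, 28 and 23 counts, and 0.673, 1.76 and 1.14 CPM in DMSO IC, from 8, 16 and 12 counts. The log2 change was 1.16 (SE 0.39, adjusted p = 0.0342, 3 of 3 mice), and the groups did not overlap. The call was lost without mouse A's DMSO IC library (0.83, adjusted p = 0.145) or mouse C (1.15, adjusted p = 0.0771), without mouse A's iBET IC library (1.22, adjusted p = 0.0667), B (1.14, adjusted p = 0.0798) or C (1.14, adjusted p = 0.0766), and without mouse A, B or C (0.91, 1.51 and 1.12, adjusted p = 0.157, 0.079 and 0.109). DESeq2 gave 1.13 at an adjusted p of 0.0619 and limma 1.14 at 0.0615. With Ova the level of Hbegf was 0.514, 0.537 and 1.24 CPM in DMSO, from 1, 7 and 15 counts, and 2.01, 1.77 and 1.02 CPM in iBET. The change of 0.93 did not pass (adjusted p = 0.138), and mouse C went the other way. It was 0.82 (adjusted p = 0.235) without mouse A's DMSO Ova library.

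Osm (chr11:4236420-4241026, plus strand) was at 1.15 to 2.64 CPM in the 12 libraries, from 4 to 30 counts. The change with iBET was 0.21 with Ova (95% confidence interval -0.46 to 0.88) and -0.18 with IC (-0.76 to 0.41), neither past the test. The former was 0.23 without mouse A's DMSO Ova library. At these counts the intervals are wide, and changes of Osm within them are not excluded.

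**Figure D3:**
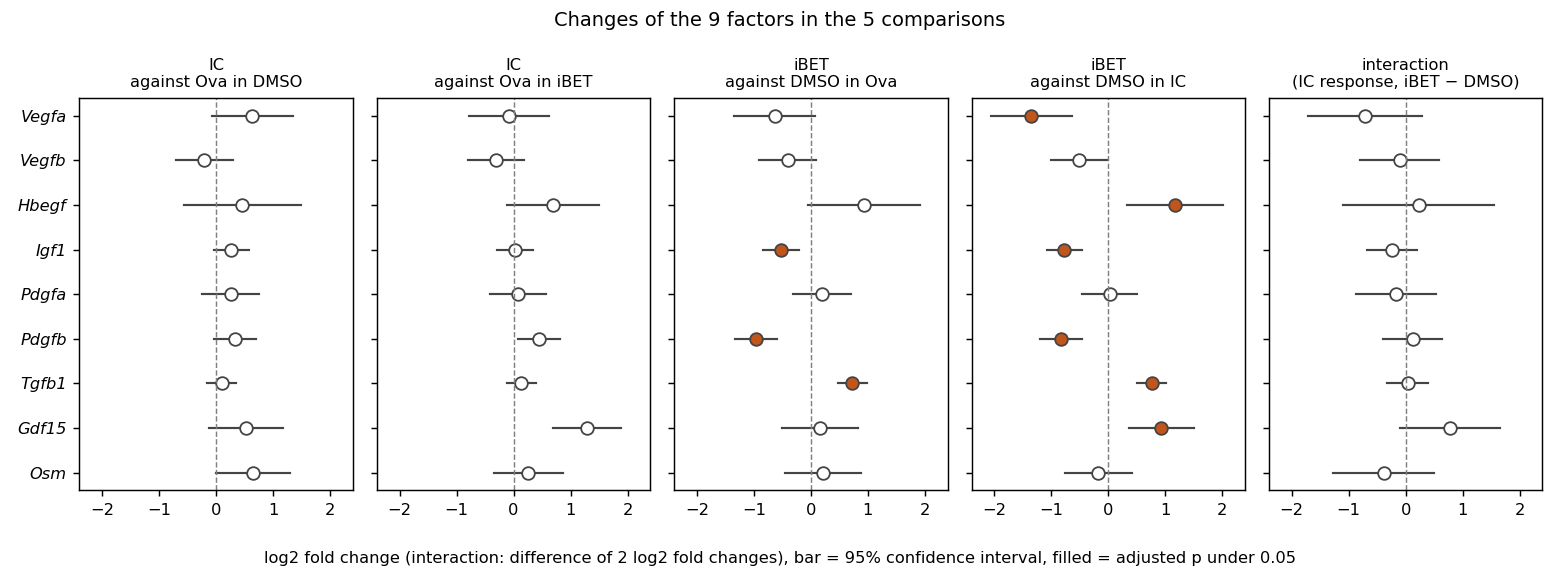
Log2 fold change of each factor in 4 comparisons, and the interaction as the difference of 2 such changes, with 95% confidence intervals; filled points have an adjusted p under 0.05. Filled points stand only in the comparisons of iBET with DMSO, 3 with Ova and 6 with IC.

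The comparison of IC with Ova asked which factors respond to Fc gamma receptor engagement, and whether the drug alters that response. In DMSO, 0 of the 9 factors were called by edgeR, 0 had an unadjusted p under 0.05 and DESeq2 called 0, where 1.22% of all genes were called. The median change of the 9 was 0.33, beside -0.010 for all genes. The changes furthest from 0 were those of Osm and Vegfa, both 0.64 and both above 0 in 3 of 3 mice. Both stayed above 0 without any 1 library, although their size varied with the library left out. Osm was at 2.05, 1.15 and 1.74 CPM in DMSO Ova and 2.44, 2.09 and 2.57 CPM in DMSO IC, groups that did not overlap (95% confidence interval of the change -0.0058 to 1.29, adjusted p = 0.432). Vegfa was higher with IC in 3 of 3 mice, by 0.60, 0.42 and 0.81 on the log2 scale, although mouse A with Ova (123 CPM) was above mice B and C with IC (102 and 103 CPM). The test gave an adjusted p of 0.497 for Vegfa. With mouse as a block in DESeq2, Vegfa (0.62, adjusted p = 0.0197) and Igf1 (0.27, adjusted p = 0.0299) were called, and in edgeR with the same block Vegfa had an adjusted p of 0.086. The changes of the others were 0.52 for Gdf15, 0.46 for Hbegf, 0.33 for Pdgfb, 0.25 for Pdgfa, 0.10 for Tgfb1 and -0.21 for Vegfb. Vegfa was at 0.30 without mouse A's DMSO IC library, and Osm at 0.38 without mouse B's DMSO Ova library. Without mouse A's DMSO Ova library, Vegfa was at 0.92 (adjusted p = 0.248), Osm at 0.69, Hbegf at 0.38, Gdf15 at 0.36, Igf1 at 0.25, Pdgfa at 0.21, Pdgfb at 0.14, Tgfb1 at -0.025 and Vegfb at -0.083, with 0 called.

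In iBET, 0 factors were called by edgeR, where 0.349% of all genes were, and 2 had an unadjusted p under 0.05, Gdf15 and Pdgfb. DESeq2 called 1, Gdf15. The change of Gdf15 was 1.29 (SE 0.27, 95% confidence interval 0.70 to 1.88, adjusted p = 0.0935), with 0.88, 1.40 and 1.42 in mice A, B and C, and the groups did not overlap. Gdf15 passed with mouse as a block (1.27, adjusted p = 0.0166), in DESeq2 (1.30, adjusted p = 0.0135), without mouse A's DMSO Ova library (1.30, adjusted p = 0.0432) (a library in neither group compared) and without mouse A (1.49, adjusted p = 0.0267). The change of Pdgfb was 0.45 (adjusted p = 0.527), with no overlap between the groups, and it was called without mouse A (0.55, adjusted p = 0.032). The changes of the other 7 lay between -0.31 for Vegfb and 0.69 for Hbegf (adjusted p = 0.737, with no overlap between the groups), and their median with the 2 above was 0.14, beside -0.011 for all genes. The share of all genes without such overlap was not computed, so the lack of overlap is only a description.

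The interaction is the response to IC under iBET less the response to IC under DMSO, and it was called by edgeR for 0 of the 9 factors and for 0.0% of all genes, where 292 genes had an unadjusted p under 0.05 and DESeq2 called 4 genes, none of them a factor. None of the 9 had an unadjusted p under 0.05 in this model, and with mouse as a block 2 had, Vegfa (-0.76, SE 0.24) and Igf1 (-0.25, SE 0.12). The highest value was that of Gdf15, 0.77 (95% confidence interval -0.11 to 1.66), with -0.66, 1.17 and 0.74 in the 3 mice. The lowest was that of Vegfa, -0.71 (-1.71 to 0.29), with -0.32, -0.52 and -1.39 in the 3 mice. With mouse as a block the adjusted p of both Vegfa and Igf1 was 0.9998. The value of Vegfa was -0.37 without mouse A's DMSO IC library and -0.99 without mouse A's DMSO Ova library, and that of Gdf15 was 0.33 without mouse B's DMSO Ova library and 0.94 without mouse A's. The other 7 lay between -0.38 and 0.23. No difference of the IC response between iBET and DMSO was shown for any factor, and without the block the intervals of Vegfa and Gdf15 are wide. The 4 pairwise comparisons share libraries with each other, so that their values for a factor are not independent.

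Genes whose profile over the 12 libraries lay nearest to each factor with a call were found by the root mean square gap between centred log2 CPM values, among 9157 genes with a mean count of at least 50. They were Ttpal, Grina and Nfya for Tgfb1 (gap of 0.06 for the first), Acp2, Antxr2 and Micall1 for Igf1 (0.08), Dennd4b, Pogk and Ddx17 for Pdgfb (0.13) and Tpm1, Rai14 and Nop58 for Vegfa (0.19). For the low-count factors the nearest genes were less near, with Rhbdf2, Tnfsf9 and Tnf for Gdf15 (0.30) and Csrnp1, Sema4b and Cdkn1a for Hbegf (0.28). With a prior count of 5 in place of 2, Rhbdf2 and Csrnp1 were still the nearest, but Tnfsf9 and Tnf came to ranks 5 and 7 and Sema4b and Cdkn1a to ranks 8 and 12. Likeness over libraries that share 4 groups is a description.

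Close relatives of the 9 ligands were mostly at or near 0 counts in these cells. Of 23 relatives, 4 passed the filter, Vegfc, Pgf, Tgfb3 and Gdf3. The EGF relatives Tgfa, Ereg, Btc and Nrg1 had 0 counts in all libraries, and Lif and Il6, relatives of Osm, had at most 4 and 3. With iBET 3 of the 4 tested relatives were called, all lower in both backgrounds. Of all genes, 14.2% were lower with Ova and 15.8% with IC. The relatives and receptors named here with counts near 0, and the 3 called, were named after their values were seen. Vegfc, a growth factor of lymphatic vessels, changed by -2.88 with Ova and -3.02 with IC, from a mean of 3.22 CPM in DMSO IC to 0.339 in iBET IC. Pgf, placental growth factor, changed by -3.27 and -3.38, from 3.36 to 0.272 CPM after IC. Tgfb3 changed by -2.50 and -1.85, from 5.43 to 0.984 CPM with Ova and from 3.43 to 0.926 CPM with IC. Vegfc and Pgf are low enough in iBET that they could pass the filter only through DMSO libraries. Tgfb3 was near the floor in iBET too, so the counts of these 3 support nothing about the group.

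Receptors for the factors were measured too, since BMDMs could respond to what they make. Of 23 receptor genes 14 were tested. Those for platelet-derived growth factor, Pdgfra and Pdgfrb, had at most 2 and 3 counts in a library, Egfr had at most 8, and Osmr, Gfral (the Gdf15 receptor) and Erbb4 had 0. With iBET 4 receptors rose and 2 fell with Ova, and 3 rose and 3 fell with IC, where 17.1% and 14.2% of all genes rose and fell with Ova and 19.0% and 15.8% with IC, with list medians of 0.012 and 0.0073. Lifr, the leukaemia inhibitory factor receptor, which mouse oncostatin M can also use, rose from 16.1 ± 0.88 to 46.0 ± 3.66 CPM with Ova (SD, n = 3, log2 change 1.52) and from 8.08 ± 0.35 to 35.8 ± 0.87 CPM with IC (2.15). It was also lower with IC than with Ova in DMSO (-0.99, adjusted p = 0.00142). Igf1r, the receptor of Igf1, rose with Ova (0.67, adjusted p = 0.0447, and 0.45 with an adjusted p of 0.131 without mouse A's DMSO Ova library). Its change of 0.52 with IC was not called (adjusted p = 0.0924). Insr, the insulin receptor, rose by 0.51 with Ova and by 0.46 with IC. Kdr, the main signalling receptor of Vegfa, fell from 19.3 to 12.3 CPM with Ova (-0.66) and from 24.1 to 14.5 with IC (-0.73).

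Some genes act in the release, storage and binding of the factors. Of 23 such genes 10 were tested, and with iBET 0 rose and 1 fell with Ova, while 2 rose and 1 fell with IC, where 31.3% and 34.8% of all genes were called. The one that fell both times was Thbs1, thrombospondin 1, an activator of latent TGF-beta, from 78.3 ± 24.0 to 30.9 ± 15.3 CPM with Ova (-1.31, adjusted p = 0.0281, and -1.12 with an adjusted p of 0.0892 without mouse A's DMSO Ova library) and from 91.7 ± 14.4 to 24.1 ± 9.78 CPM with IC (-1.91, adjusted p = 0.00351). With IC, Rhbdf2, which helps the protease that sheds Hbegf to mature, rose by 0.58 and Ltbp3, a latent TGF-beta binding protein, by 0.32. Adam17, that protease, named after its values were seen, was not called (0.12 and -0.13).

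Vegfa is a classical target of the hypoxia-inducible factors, and 17 of 18 genes of that list were tested. With iBET 9 rose and 1 fell with Ova, and 11 rose and 1 fell with IC, where 17.1% and 14.2% of all genes rose and fell with Ova and 19.0% and 15.8% with IC. Vegfa itself, not in the list, fell after IC. The medians were 0.35 and 0.49. Epas1, the HIF-2 alpha subunit, rose from 2.26 to 11.1 CPM with Ova (2.07) and from 2.49 to 10.7 with IC (2.09). Vhl, which marks the alpha subunits for destruction, rose by 1.10 and 1.15, and Bnip3, a mitophagy gene, by 0.79 and 0.75. The gene that fell was Ankrd37 (-0.97 and -0.91), named after its values were seen.

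For Tgfb1, 16 Smad factors and targets of TGF-beta were all tested. With iBET 8 rose and 4 fell with Ova and 9 rose and 4 fell with IC, beside the same shares of all genes, with medians of 0.48 and 0.56. Genes known to restrain the pathway went both ways. Ski, a Smad co-repressor, rose by 1.08 with Ova and 1.16 with IC. Smad7 (0.86 and 0.65) and Bambi (1.39 and 1.98), named after their values were seen, also rose. Id1 (1.36 and 1.45) and Id3 (1.32 and 1.13), targets of the related BMP branch, rose as well. Of the genes that restrain the pathway, Tgif1, a Smad co-repressor, fell (-0.46 and -0.56). Skil (-0.54) and Pmepa1 (-0.62) fell with Ova, and Smad6 (-0.95) fell with IC. In the other background the changes of Skil (-0.31), Pmepa1 (-0.35) and Smad6 (-0.34) were not called. All of these were named after their values were seen.

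For Gdf15, 12 genes of the stress and p53 pathways were tested, which hold targets of these pathways as well as regulators. With iBET 3 rose and 1 fell with Ova, and 4 rose and 1 fell with IC (all genes, 17.1% up and 14.2% down with Ova and 19.0% up and 15.8% down with IC), with medians of 0.21 and 0.25. Sesn2, a stress sensor, rose by 1.52 and 1.58 and Cdkn1a, the p21 cell cycle inhibitor, by 0.93 and 1.19. Mdm2, the ubiquitin ligase of p53, fell from 550 to 229 CPM with Ova (-1.26) and from 790.1 to 302 with IC (-1.39). Cebpb rose with IC in DMSO (0.71, adjusted p = 0.0279, and 0.59 with an adjusted p of 0.0787 without mouse A's DMSO Ova library). Of the JAK-STAT genes through which Osm signals, 10 of 11 were tested, and with iBET 6 rose and 1 fell with Ova and 5 rose and 1 fell with IC, beside the same shares, with medians of 0.39 and 0.37. Stat3 rose by 0.81 and 0.79, Pim1 by 1.10 and 0.89, and Bcl3 fell (-1.40 and -1.12). Socs3, the feedback inhibitor, rose with IC in DMSO from 0.908 ± 0.81 to 7.65 ± 2.43 CPM (2.64, adjusted p = 0.0083) and in iBET from 1.84 ± 0.36 to 9.78 ± 3.06 CPM (2.43, adjusted p = 0.0118), and Pim1 rose with IC in DMSO (0.74, adjusted p = 0.0336, and 0.67 with an adjusted p of 0.0843 without that library). Of the 43 genes of all 7 lists called with iBET after Ova, 36 were also called without mouse A's DMSO Ova library, and of the 4 called with IC in DMSO, 2 were. The 7 lost after Ova were Igf1r, Thbs1, Hif1a, Ndrg1, Smurf1, Jak2 and Stat5a.

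**Figure D4:**
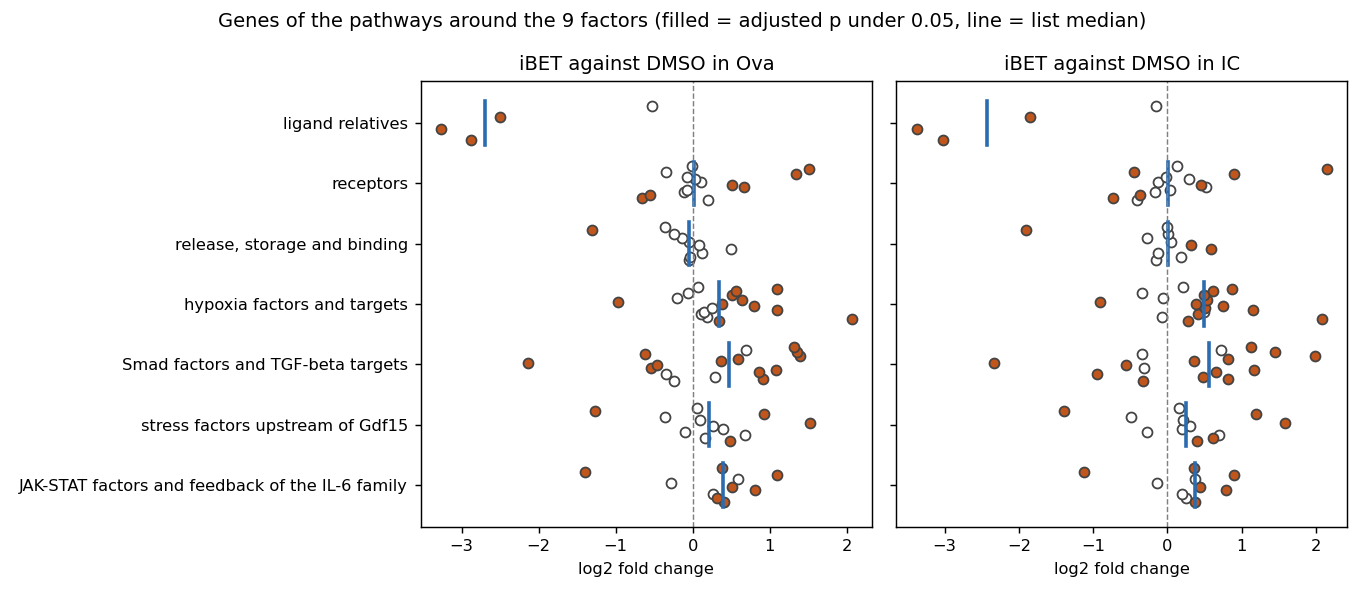
Log2 fold change with iBET, with Ova (left) and with IC (right), of every tested gene in the 7 lists around the factors, 1 point per gene; filled points have an adjusted p under 0.05 and blue lines are list medians. Most called hypoxia genes lie right of 0. The 3 called ligand relatives lie far left, but they are near the floor in iBET and support nothing about the group.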

How the data were processed

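RNA of mouse BMDMs was sequenced in 4 groups of 3 libraries. The authors trimmed reads with Trim Galore, aligned them to mm10 with HISAT2 and assigned them to genes with featureCounts in Rsubread, and deposited counts per gene symbol. Annotation, strand and treatment of multiple alignments are not given in the sources used here. A second deposited table holds a normalized signal, which equals counts divided by DESeq2 median-of-ratios size factors (largest relative gap 5.26e-15). No column of another sample was present.

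Counts were fitted in edgeR 4.0.16 (R 4.3.3): filterByExpr with minimum count 10, TMM, 1 term per group over the 12 libraries, robust quasi-likelihood F tests, two-sided, with Benjamini-Hochberg adjustment over 11468 genes and calls at an adjusted p under 0.05. All adjusted p-values are from it unless another tool is named. Fold changes per mouse use log2 CPM with a prior count of 2. SE is the absolute change over the square root of F. The drug changed the transcripts of many genes, and TMM takes most genes as level. The scripts' tests were checked on simulated data.

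Mice were identified by the labels, so libraries of 1 mouse are paired. Deviations from group means of the 18 same-mouse pairs correlated between -0.0725 and 0.542 (median 0.263), and those of 36 other pairs had a median of -0.134. Of the 18, 12 were above 0.1. Mouse A's iBET Ova library was at -0.051 and -0.0725 with mouse A's DMSO Ova and DMSO IC, but at 0.23 and 0.27 with mouse B's. Mouse B's was at -0.057 and -0.0068 with its own, but at 0.18 and 0.26 with mouse A's. With mouse A's iBET IC library they were at 0.22 and 0.19, and with mouse B's at 0.053 and 0.092. Blocked values and per-mouse changes that use iBET Ova therefore rest on the labels for these libraries. The main model has no block, and the blocked value is given where it changes a call.

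The 9 factors, the 7 pathway lists and the marker lists were chosen with earlier results of these data known. Named genes were all factors, up to 3 genes per list and comparison with the largest change among those called whose counts averaged 50 or more, and the 3 nearest profiles per called factor. Genes outside this rule were named after their values were seen. A few genes chosen by the rule, or held in the lists, are not reported here. Alternatives were DESeq2 1.42.0, its size factors, other filters, mouse as a block, the compared groups alone, 1 surrogate variable (sva 3.50.0), limma 3.58.1 on log2 of the signal plus 1, stricter thresholds and omission of each library and mouse. After seeing the data, the omission of mouse A's DMSO Ova library together with the block was added. Motifs were sought in RefSeq promoter windows, which 6 of the 9 factors had, and 4 of these began within 10 bases of the GENCODE start.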

Additional observations from a re-analysis of the deposited data

How the results depend on the processing

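Igf1, Pdgfb and Tgfb1 with iBET, and Vegfa with iBET after IC, kept direction and call in every alternative that kept all libraries, except under stricter thresholds, which by construction keep fewer calls. The number of factors called with iBET after Ova, 3, fell to 0 when a 2-fold change was also required and ranged from 1 to 3 with a library or mouse left out, the lowest without mouse B. After IC it was 6, with 2 at 2-fold, and 3 to 6 (3 without mouse B or C). For IC against Ova in DMSO it was 0, 2 with mouse as replicate block in DESeq2 and 1 with 1 surrogate variable. In iBET it was 0, and 1 (Gdf15) with DESeq2, with the block in edgeR or DESeq2, with the compared groups alone, with 1 surrogate variable and with the block without mouse A's DMSO Ova library, and 0 to 2 with a library or mouse left out (2 without mouse A). Pairing by mouse changed no other call of a factor beyond those given with the results, except that the call of Hbegf after IC was lost with the block in DESeq2 (adjusted p = 0.0681). The compared groups alone give no value for the interaction.

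Of the list genes tested, whose number in each list is given above, 43 were called with iBET after Ova, where 31.3% of all genes were called. The lists were chosen with earlier results known, and the counts with iBET include the 3 ligand relatives near the floor. There were 28 at an adjusted p under 0.01, 18 at 2-fold and 17 to 49 with omissions (17 without mouse B, 24 without mouse C). After IC 48 were called, beside 34.8% of all genes, with 31, 16 and 21 to 51 in turn (21 without mouse B, 30 without mouse C). For IC in DMSO 4 were called, beside 1.22% of all genes. DESeq2 gave 9, the block 12, the block in DESeq2 16, the groups alone 0, the surrogate variable 14, the stricter p 2, the 2-fold rule 1 and omissions 0 to 5. In iBET 1 was called, beside 0.349% of all genes. DESeq2 gave 7, at least 10 counts in every library 0, the block 3, the block in DESeq2 10, the groups alone 6, the surrogate variable 7, limma 0, the block without mouse A's DMSO Ova library 4, the stricter p 0 and omissions 0 to 8. The cause was not tested.

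Calls over all genes moved as well. For IC in DMSO 140 became 265 in DESeq2, 315 with the block and 0 without mouse B, and for iBET after Ova 3593 became 1310 without mouse B.

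Only values with no call changed sign. With the surrogate variable, Vegfa with IC in iBET was at 0.041 and the interaction of Hbegf at -0.024. Pdgfa with iBET after IC gave -0.0083 with DESeq2, -0.0081 with its size factors, -0.0096 with at least 10 counts in every library and -0.0042 with the block in DESeq2. Tgfb1 with IC in DMSO gave -0.045 with the block without mouse A's DMSO Ova library. With a library or mouse left out, values ran from -0.34 to 0.15 for Vegfa with IC in iBET, -0.26 to 0.18 for the interaction of Vegfb, and -0.26 to 1.12 (IC in DMSO) and -0.68 to 0.99 (interaction) for Hbegf. They ran from -0.069 to 0.13 for Igf1 with IC in iBET, from -0.024 to 0.21 (IC in iBET), -0.18 to 0.20 (iBET after IC) and -0.40 to 0.046 (interaction) for Pdgfa, and from -0.023 to 0.32 for the interaction of Pdgfb. The ranges were -0.025 to 0.18 (IC in DMSO) and -0.038 to 0.17 (interaction) for Tgfb1, -0.024 to 0.60 for Gdf15 with iBET after Ova, and -0.058 to 0.38 (iBET after Ova) and -0.33 to 0.042 (iBET after IC) for Osm. Levels under DESeq2 size factors moved by less than 1 SD in all 36 cases.

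At 3 libraries per group and 1 to 46 counts for Hbegf, depth limits what can be said of the low factors.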
